A study of Mus musculus with 84 samples.

Results

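Livers of male B6C3F1 mice fed fenthion (FT) at 20 ppm were compared with livers of mice fed FT at 10 ppm. The members were chosen by their labelled dose and numbered 14 of the 84 mice of the mouse liver study, 7 in each group. Every mouse, control mice included, received AIN-93G diet from 8 weeks of age for 7 days, and liver RNA was read by TempO-Seq, a targeted assay in which pairs of detector oligos are ligated on their mRNA and counted by sequencing. The mice came from 3 experimental blocks, and both groups drew 2 from block 1, 3 from block 3 and 2 from block 4. Isolation of RNA took place at 2 sites, labelled EA and EPA: all 7 FT10ppm mice and 5 FT20ppm mice were EA, and the other 2 FT20ppm mice, in blocks 3 and 4, were EPA. The question was whether the response at 10 ppm is kept, lost or reversed at 20 ppm, and no control mouse entered the test.

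Fenthion is an organophosphate insecticide. Liver cytochrome P450 enzymes convert it to the oxon form that inhibits acetylcholinesterase, and carboxylesterases and paraoxonases bind or hydrolyse such oxons. The liver is also the source of the acute phase proteins, which hepatocytes secrete when cytokines such as interleukin 6 and interleukin 1 reach them, and it is the main site of fatty acid and cholesterol synthesis.

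Total counts were 9614961 to 15300589 per mouse at FT20ppm (median 11535633) and 8733512 to 13528658 at FT10ppm (median 10949133). Levels are given in CPM, the standard unit that scales a gene's count by the total count of its mouse, and a floor of 3 counts came to 0.196 to 0.344 CPM across the 14 mice. On the first principal component of log2(CPM + 1), which held 25.1% of the variance, the EPA mice stood apart at 40.93 and 28.03, and the other 12 mice lay between -20.39 and 7.11. On the second, with 22.6% of the variance, FT10ppm replicate 2 of block 1 stood apart at -45.51, against -15.62 to 20.65 in the rest. Replicate numbers were assigned here, because the labels carry none. The defining markers of hepatocytes were abundant in both groups, with albumin at 4600 to 11400 CPM at FT20ppm and 7700 to 12600 CPM at FT10ppm. Markers of gallbladder and bile duct mucosa summed to at most 0.883 CPM at FT10ppm, and to 255 CPM in 1 FT20ppm mouse, the EPA mouse of block 3.

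No gene passed the threshold between 20 and 10 ppm. With edgeR's quasi-likelihood test, and block and isolation site as covariates, 0 of 10415 genes (0%) passed an adjusted p under 0.05, and the smallest was 0.401. An unadjusted p under 0.05 was reached by 1071 genes (10.3%), of which 545 (5.23%) were higher and 526 (5.05%) lower at FT20ppm. The limma-voom test and limma on log2(CPM + 1) also gave 0 genes at an adjusted p under 0.05, and DESeq2 gave 19, of which 3 were at least 2-fold apart. The 95% interval of the fold change lay inside 2-fold for 9358 genes (89.9%) and inside 1.5-fold for 60.2%, so that a 2-fold difference was outside the interval for most genes. Because both EPA mice were FT20ppm, the isolation site term leaves the estimate to 5 FT20ppm and 7 FT10ppm mice, and a fit of the EA mice alone gave 0 genes at an adjusted p under 0.05, with 515 higher and 497 lower at an unadjusted p under 0.05. Leaving out FT10ppm replicate 2 gave 0, with 635 higher and 518 lower. Mice were housed in cages assigned to a diet, the labels give no cage, and the tests treat each mouse as independent.

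The 12 genes with the smallest unadjusted p among those higher at FT20ppm were of mixed functions. They included Abcg8 of sterol export, Sds of amino acid breakdown and the lysosomal proteases Ctsc and Ctss. None passed the threshold, and adjusted p was 0.401 for each in edgeR's test. Abcg8 (chr17:84983730-85007765, plus strand, GRCm39), which with Abcg5 exports sterols into bile, was at 26.4 to 46.8 CPM at FT20ppm (median 39.6) and 23 to 33 CPM at FT10ppm (median 28.5). In the 5 EA mice at FT20ppm the level of Abcg8 was above every FT10ppm mouse, and the EPA mice were at 26.4 and 26.7 CPM. Its log2 fold change, which the isolation site term leaves to the EA mice, was 0.49 ± 0.0863 (SE). Akr1e1 (chr13:4636940-4659209, minus strand), an aldo-keto reductase, was at 24.7 to 43.7 CPM (median 31.2) against 18.3 to 23.7 CPM (median 20.4), with no overlap and a log2 fold change of 0.53 ± 0.104. Wsb1 (chr11:79130198-79145531, minus strand), a substrate receptor of a ubiquitin ligase, was at 24.4 to 54.7 CPM (median 31.8) against 12.4 to 23.4 CPM (median 17.5), again with no overlap, and its log2 fold change was 0.77 ± 0.165. Nedd9, a scaffold protein of focal adhesions, was the last of the 12 with groups that did not overlap, at 2.60 to 3.79 CPM against 1.15 to 2.50 CPM. Sds, the serine dehydratase that feeds serine into gluconeogenesis, had a log2 fold change of 0.68 ± 0.152, and 4 FT20ppm mice lay above all FT10ppm mice. The lysosomal proteases Ctsc and Ctss differed by 0.63 ± 0.148 and 0.62 ± 0.149 on the log2 scale, Ctss being best known from macrophages and other antigen-presenting cells. Fpr1, a receptor for bacterial formyl peptides on phagocytes, differed by 0.73 ± 0.179. The rest were the tetraspanin gene Tspan4, the mitochondrial carrier gene Slc25a34, the zinc finger gene Zfp113 and Gvin2, of the very large interferon-inducible GTPases. Their log2 fold changes were 0.81, 1.20, 0.67 and 0.81. Both EPA mice lay within the FT10ppm range for Abcg8, Sds, Ctsc, Ctss and Fpr1. Both were above that range for Akr1e1, Wsb1, Nedd9 and Zfp113, and they were split for the other genes. Among EA mice, the block 4 difference of log2(CPM + 1) was 0.013 for Ctsc, 0.14 for Ctss, 0.15 for Tspan4 and 0.16 for Gvin2. In block 1 the same genes had 0.99, 0.94, 1.04 and 1.18. The rest of the 12 had 0.31 to 0.86 in block 4, where EA mice at FT20ppm numbered 1.

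The 12 genes with the smallest unadjusted p among those lower at FT20ppm included 2 processed pseudogenes and genes of several unrelated functions. Cyb5r3 (chr15:83037695-83056793, minus strand), a reductase that passes electrons from NADH to a cytochrome, was at 312 to 435 CPM at FT20ppm (median 387) and 395 to 566 CPM at FT10ppm (median 520), with a log2 fold change of -0.42 ± 0.0948. Map2, a microtubule-associated protein gene, was the gene among the 12 whose groups did not overlap, at 0.546 to 1.04 CPM against 1.12 to 2.37 CPM, although its lowest level rested on 6 counts. Gjb1 (chrX:100419984-100429547, plus strand), the main gap junction protein of hepatocytes, had a median of 74.8 CPM against 93.4 to 116 CPM (median 115). The EPA mice were the lowest, at 34.3 and 36.2 CPM, and the EA mice at FT20ppm had a lowest level of 66.8 CPM (median 84.2). Of the 5 FT20ppm mice below all FT10ppm mice, 3 were EA, and the remaining FT20ppm mice lay within the FT10ppm range. The log2 fold change of Gjb1, which the isolation site term leaves to the EA mice, was -0.43 ± 0.0988. Selenos, a selenoprotein of the endoplasmic reticulum, was at 13.1 to 39.5 CPM (median 18.3) against 23.6 to 46.8 CPM (median 35.3), a log2 fold change of -0.79 ± 0.19. Sem1, a small proteasome subunit, differed by -0.44 ± 0.098 and Med15, a Mediator subunit, by -0.56 ± 0.135. The pseudogenes Gm2996 and Gm8834 differed by -2.23 ± 0.534 and -1.04 ± 0.204, and the authors' counting may have split their reads with the parent genes. Trim27, Lztr1, Dipk2a and Oaf had log2 fold changes of -1.05, -1.18, -0.87 and -0.73. In DESeq2, 16 of these 24 genes had an adjusted p under 0.05, Gm8834 alone among the 16 being at least 2-fold apart, at an adjusted p of 0.00283.

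**Figure D1:**
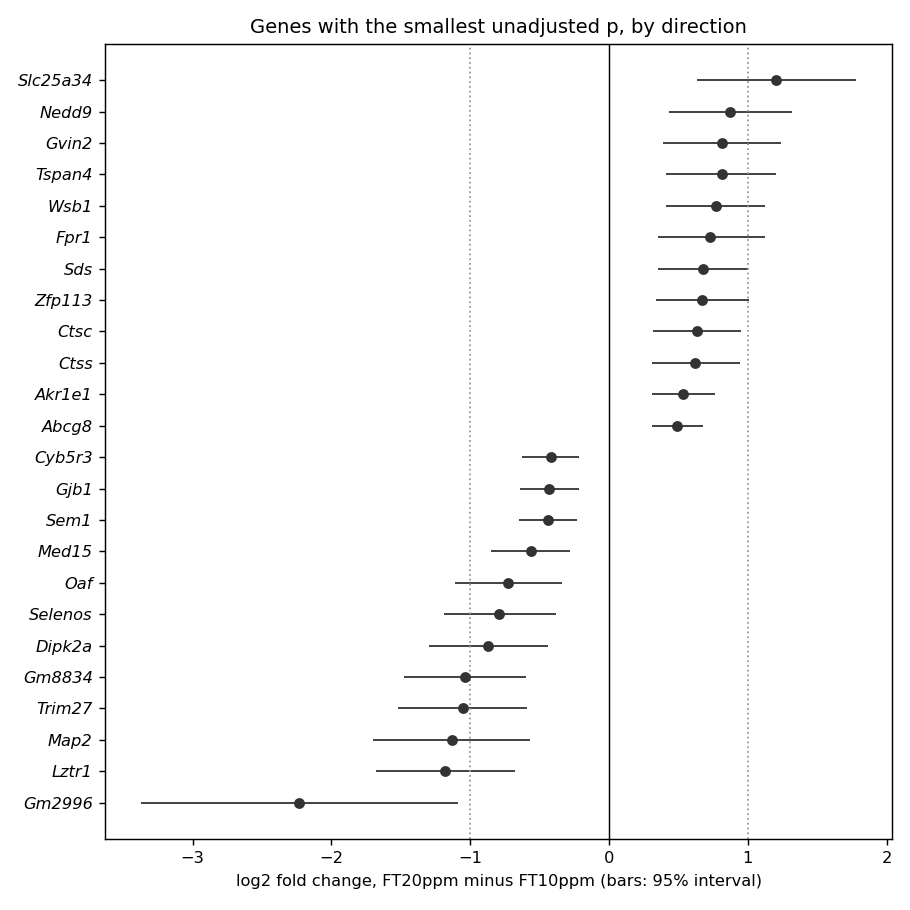
The log2 fold change between FT20ppm and FT10ppm (x axis) with its 95% interval for the 24 genes with the smallest unadjusted p, 12 in each direction, where dotted lines mark 2-fold. The estimates run from -2.23 for Gm2996 to 1.20 for Slc25a34, and the adjusted p of each was 0.401.

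Over all genes tested, 11 (0.106%) had all 7 FT20ppm mice above all 7 FT10ppm mice in CPM, and 12 (0.115%) had all 7 below. Among the 12, the miRNA entries Gm54751, Gm54987 and Gm54988 had identical values, 13.6 to 15.8 CPM against 16.7 to 24.6 CPM, and are not separate measurements. Beside those already named, Itga9, an integrin subunit gene, was higher at 11.7 to 15.3 CPM against 7.25 to 11.4 CPM, and Scarb2, a lysosomal membrane protein gene, at 64 to 78.9 CPM against 41.6 to 63.6 CPM. Aldh9a1, an aldehyde dehydrogenase used in carnitine synthesis, was the most abundant of those that were lower, at 561 to 789 CPM against 790 to 1200 CPM. These genes were singled out after their values were seen, and none had an adjusted p under 0.401.

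The genes of the acute phase response formed the list with the most members higher at FT20ppm than at FT10ppm. Of 30 members tested, 20 (66.7%) were higher at an unadjusted p under 0.05 and 0 were lower, against 5.23% and 5.05% of all genes, and none passed the adjusted threshold. The median log2 fold change of the list was 0.72, against 0.0077 over all genes tested, and 29 of 30 members had a positive estimate, against 51.4% of all genes. Serum amyloid A genes Saa2 and Saa1, the antimicrobial lipocalin gene Lcn2 and the orosomucoid gene Orm2 had the largest estimates together with Mt2. Saa2 was at 288 to 24600 CPM at FT20ppm (median 831) and 43 to 5930 CPM at FT10ppm (median 158), a log2 fold change of 5.00 ± 1.91 with a 95% interval of 0.92 to 9.09. Saa1 was at 647 to 17700 CPM (median 1510) against 60.1 to 6240 CPM (median 256), a log2 fold change of 4.04 ± 1.5. Reads of Saa1 and Saa2, near-identical neighbours, may have been split between them by the authors' counting, so each value is uncertain. The pair was not fitted as 1 gene. The groups overlapped for both, 3 FT20ppm mice lying above all FT10ppm mice.

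**Figure D2:**
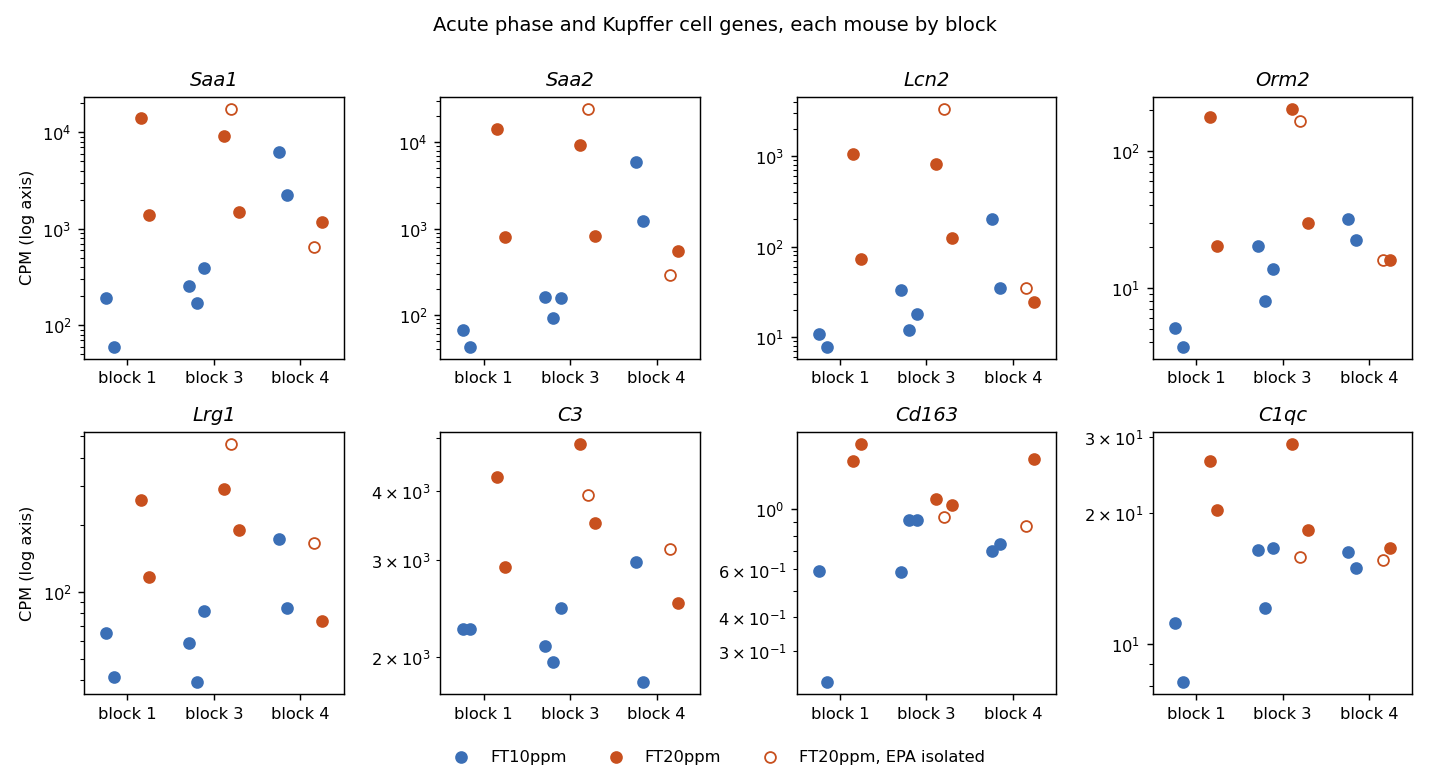
CPM (log axis) of 6 acute phase genes and 2 Kupffer cell genes in each mouse, set out by block, with FT10ppm in blue, FT20ppm in orange and EPA-isolated mice as open circles. For Saa1, Saa2, Lcn2, Orm2 and Lrg1 every FT20ppm mouse of blocks 1 and 3 lies above the FT10ppm mice of its block, and in block 4 both FT20ppm mice lie below the higher FT10ppm mouse.

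The difference in acute phase genes was seen in blocks 1 and 3 and was the opposite in block 4. In block 1, Saa2 was at 14100 and 798 CPM in the FT20ppm mice and at 66.7 and 43 CPM in the FT10ppm mice. In block 3 it was at 9360, 24600 and 831 CPM against 163, 92.3 and 158 CPM. In block 4 it was at 288 and 550 CPM against 5930 and 1220 CPM. Across the list, the median difference of log2(CPM + 1) was 0.91 in block 1 and 0.94 in block 3, with 29 of 30 members higher at FT20ppm in each, and it was -0.35 in block 4, with 27 of 30 members lower. The same medians over all genes were 0.047, 0.046 and 0.076. Among EA mice alone, which leaves 1 FT20ppm mouse in block 4, the medians were 0.91, 0.91 and -0.31. Without block 4, a choice made for the list after the data were seen, 24 of 30 members were higher at an unadjusted p under 0.05 and Saa1, Saa2, Lcn2 and Lrg1 were called at an adjusted p of 0.0493 in edgeR's test. Without block 3, 0 of 30 members reached an unadjusted p under 0.05, and 1.32% of all genes were higher at that level. Without block 1 the count was 5 of 30. Leaving out FT10ppm replicate 2, which had the lowest Saa1 and Saa2 of the 14 mice, gave 11 of 30. Leaving out FT20ppm replicate 3 of block 3 gave 7 of 30, the lowest count for any 1 mouse. Of all 10415 genes, 635 and 359 were higher in these fits, against 545 in the main fit.

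Other members had smaller estimates. C3, the central complement component, was at 2510 to 4880 CPM at FT20ppm (median 3500) and 1800 to 2970 CPM at FT10ppm (median 2250), a log2 fold change of 0.64 ± 0.172, with 5 FT20ppm mice above all FT10ppm mice. Itih3, a heavy chain of the inter-alpha-trypsin inhibitor, was at 1860 to 4990 CPM (median 2570) against 1170 to 2020 CPM (median 1650), and 6 FT20ppm mice lay above all FT10ppm mice. Its log2 fold change was 0.74 ± 0.233, and 0.90 without FT10ppm replicate 2. Lcn2 was at 24.1 to 3380 CPM (median 125) against 7.79 to 203 CPM (median 17.7). Hemopexin (Hpx), which binds free heme, differed by 0.87 ± 0.279 on the log2 scale, haptoglobin (Hp), which binds free hemoglobin, by 0.83 ± 0.354, and Apcs, serum amyloid P, by 1.21 ± 0.356. The fibrinogen genes gave 0.21 ± 0.167 for Fga, 0.22 ± 0.177 for Fgb and 0.47 ± 0.188 for Fgg. Hamp, the gene of the iron hormone hepcidin, was the member with a negative estimate, -0.17 ± 0.676.

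Promoters are shown for the 4 acute phase genes with the largest estimates apart from Mt2. The windows are from RefSeq on GRCm38.p6, 250 bases before to 50 after the gene start, and are at chr7:46742931-46743230 (minus strand) for Saa1, chr7:46751583-46751882 (plus strand) for Saa2, chr4:63362199-63362498 (plus strand) for Orm2 and chr2:32387690-32387989 (minus strand) for Lcn2. Capitals mark matches, on either strand, to TTNNGNAA, the core of the site bound by C/EBP factors, which are activated in hepatocytes during the acute phase.
Saa1: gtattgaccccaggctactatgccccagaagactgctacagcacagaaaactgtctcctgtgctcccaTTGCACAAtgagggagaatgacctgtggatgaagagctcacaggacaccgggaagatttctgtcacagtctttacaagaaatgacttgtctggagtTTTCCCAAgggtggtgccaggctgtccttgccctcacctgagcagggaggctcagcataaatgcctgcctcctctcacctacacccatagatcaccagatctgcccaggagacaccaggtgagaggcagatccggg
Saa2: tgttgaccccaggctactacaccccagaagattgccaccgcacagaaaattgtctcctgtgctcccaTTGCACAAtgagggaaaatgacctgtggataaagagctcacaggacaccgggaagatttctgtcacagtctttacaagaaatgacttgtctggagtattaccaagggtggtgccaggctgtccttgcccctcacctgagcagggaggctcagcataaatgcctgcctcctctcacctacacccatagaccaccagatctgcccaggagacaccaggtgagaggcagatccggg
Orm2: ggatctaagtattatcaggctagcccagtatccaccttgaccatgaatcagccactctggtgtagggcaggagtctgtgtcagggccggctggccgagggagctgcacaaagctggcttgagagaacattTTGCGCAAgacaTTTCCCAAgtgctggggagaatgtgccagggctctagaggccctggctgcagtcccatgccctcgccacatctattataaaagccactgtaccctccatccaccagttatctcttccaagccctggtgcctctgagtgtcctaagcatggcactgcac
Lcn2: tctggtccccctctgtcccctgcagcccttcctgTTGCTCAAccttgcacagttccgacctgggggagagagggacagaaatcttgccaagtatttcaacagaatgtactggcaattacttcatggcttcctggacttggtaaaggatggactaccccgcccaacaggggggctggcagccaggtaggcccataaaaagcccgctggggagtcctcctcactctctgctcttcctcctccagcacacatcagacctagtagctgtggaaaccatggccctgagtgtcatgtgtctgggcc
Saa1 and Saa2 share the match TTGCACAA at 182 and 183 bases before the start, Orm2 holds TTGCGCAA and TTTCCCAA, and Lcn2 holds TTGCTCAA. Of the 24 members with a single promoter in the table, 16 (66.7%) hold this motif, against 40.7% of 32851 promoters. The STAT motif TTCNNNGAA was in 7 members (29.2%), against 8.30% of promoters, and the NF-kB motif in 2 (8.33%), against 1.63%. These matches describe the letters in the windows and say nothing of binding.

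The level of the acute phase list at each fenthion dose is given for reference, without a test of the trend. The mean log2(CPM + 1) over the 30 members ran from 6.61 to 9.04 in the 7 control mice (median 8.13), from 6.39 to 7.57 at FT10ppm (median 6.82) and from 6.63 to 8.41 at FT20ppm (median 7.63). The medians at FT2.5ppm and FT5ppm were 6.99 and 7.04. Control mice therefore spanned the whole range of the FT20ppm mice, and the FT10ppm mice lay at or below its middle, with the lowest value of the 3 groups. Saa2 in control mice was at 99.8 to 40200 CPM (median 18500). Against control, 21 of 30 members were lower at FT10ppm and 0 higher at an unadjusted p under 0.05. The median log2 fold change of the list was -1.01. At FT20ppm 0 were lower or higher against control, and the list median was -0.10.

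**Figure D3:**
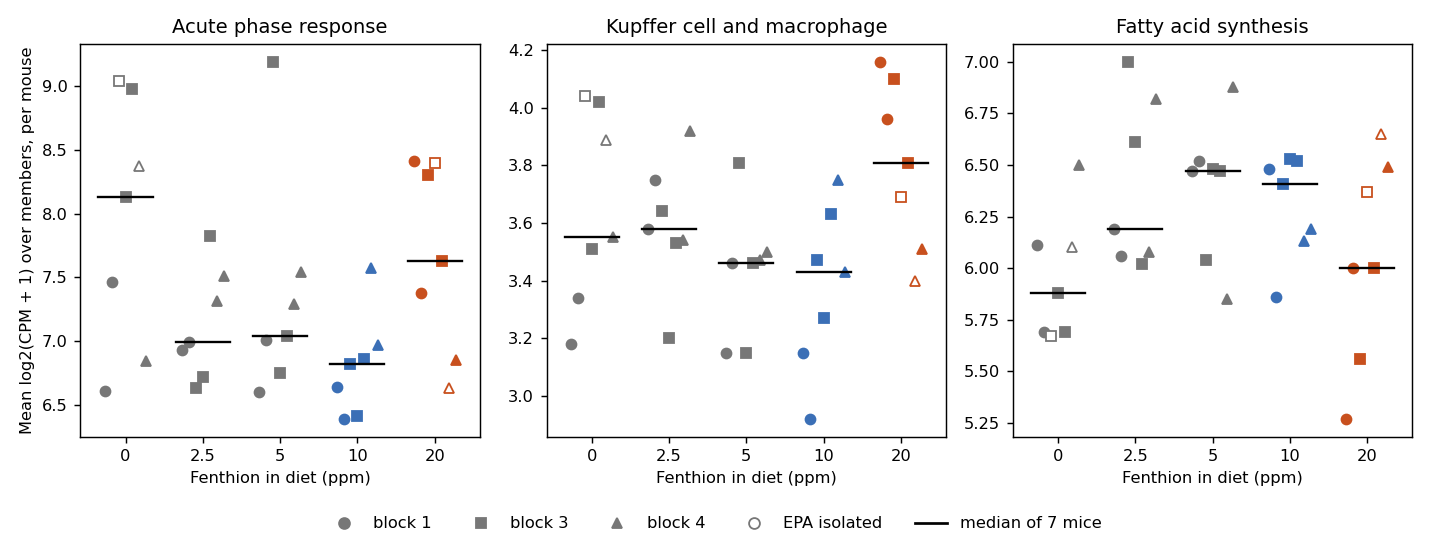
Mean log2(CPM + 1) over the tested members of 3 lists (y axis) in each mouse against the fenthion dose in the diet in ppm (x axis), with block given by the marker shape, EPA isolation by open markers and the median of 7 mice by a line. The acute phase median is 8.13 in controls, 6.82 at FT10ppm and 7.63 at FT20ppm, and in each list the 7 mice at FT20ppm overlap the 7 at FT10ppm.

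Markers of Kupffer cells and macrophages, the resident phagocytes of the liver, also had higher levels at FT20ppm than at FT10ppm. Of 11 members tested, 8 (72.7%) were higher at an unadjusted p under 0.05 and none passed the adjusted threshold, while all 11 had a positive estimate, with a median log2 fold change of 0.63. Cd163, the scavenger receptor for hemoglobin, was at 0.869 to 1.74 CPM (median 1.09) against 0.231 to 0.916 CPM (median 0.704), with 6 FT20ppm mice above all FT10ppm mice and a log2 fold change of 1.08 ± 0.28. Clec4f, a lectin restricted to Kupffer cells, was at 6.17 to 11.4 CPM (median 7.80) against 2.16 to 6.72 CPM (median 5.5), a log2 fold change of 0.80 ± 0.241. The complement genes C1qa, C1qb and C1qc differed by 0.93 ± 0.311, 0.42 ± 0.184 and 0.73 ± 0.184, and Csf1r, the receptor for macrophage colony-stimulating factor, by 0.55 ± 0.176. In bulk liver, more cells of a type and more RNA per cell cannot be told apart. The summed level of the 13 listed markers was 219 to 417 CPM at FT20ppm (median 294) and 174 to 294 CPM at FT10ppm (median 226). The count was 9 of 11 without FT10ppm replicate 2 and 7 to 9 over the fits that left out 1 mouse, but 3 of 11 without block 1, where 6.09% of all genes were higher at that level, and 4 of 11 without block 3, where 1.32% were. The median difference was 0.90 in block 1, 0.40 in block 3 and -0.12 in block 4. Against control, 4 of 11 members were lower at FT10ppm and 0 higher at an unadjusted p under 0.05. The median log2 fold change of the list was -0.44. At FT20ppm 0 were lower or higher against control, and the list median was 0.15. The median of the mean log2(CPM + 1) over the list was 3.55 in control mice, 3.43 at FT10ppm and 3.81 at FT20ppm.

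Of the neutrophil markers, S100a8 alone passed the filter on low counts, at 0.764 to 4.25 CPM against 0.386 to 1.33 CPM (log2 fold change 1.43 ± 0.38). Its unadjusted p was not under 0.05 without block 3, and its difference was 0.93 in block 1, 1.24 in block 3 and 0.0074 in block 4. The 9 neutrophil markers in the table summed to at most 8.01 CPM. Of 4 red blood cell markers, 3 globin genes were higher at an unadjusted p under 0.05 (list median 0.78), 1 without FT10ppm replicate 2 and 0 without block 3, and the globin genes are close copies. Sinusoidal endothelial markers Stab2, Clec4g and Pecam1 were higher among 10, and 0 of the 10 were without block 3. Of all genes, 5.23% were higher in the main fit, 6.1% without FT10ppm replicate 2 and 1.32% without block 3, so few members were to be counted in that last fit. Lymphocyte, stellate cell, cholangiocyte and adipocyte markers had 0 members at an unadjusted p under 0.05. Of 11 hepatocyte markers, Pck1 was higher, at 304 to 505 CPM against 157 to 415 CPM, and albumin differed by -0.12 ± 0.192. Whether the makeup of the tissue has a part in the acute phase values was not tested.

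Genes of fatty acid synthesis were the list with the most members lower at FT20ppm. Of 22 members, 10 (45.5%) were lower at an unadjusted p under 0.05 and 0 were higher, the median log2 fold change was -0.43, and 21 of 22 estimates were negative. Scd1, the desaturase that makes oleate, was at 187 to 825 CPM at FT20ppm (median 367) and 387 to 985 CPM at FT10ppm (median 803), a log2 fold change of -0.76 ± 0.32. In 4 FT20ppm mice the level was below that of all FT10ppm mice, and the FT20ppm mice of block 4 were the highest of their group. Fasn, fatty acid synthase itself, was at 22.8 to 191 CPM (median 56.2) against 35 to 123 CPM (median 88.4), a log2 fold change of -0.71 ± 0.306. Me1, malic enzyme, which supplies NADPH for the pathway, differed by -0.86 ± 0.272, Acly, ATP citrate lyase, by -0.57 ± 0.235, and Pnpla3, a lipase gene induced with lipogenesis, by -0.98 ± 0.441. Srebf1 and Mlxipl, the genes of the transcription factors that drive these enzymes, gave -0.14 ± 0.315 and 0.025 ± 0.163.

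The list of fatty acid synthesis showed the same dependence on blocks. Its median difference was -0.48 in block 1, -0.54 in block 3 and 0.37 in block 4, where 19 of 22 members were higher at FT20ppm. The count was 14 of 22 without block 4, 2 of 22 without block 1 and 0 of 22 without block 3, where the shares of all genes lower at that level were 6.70%, 5.45% and 1.05%. It was 9 of 22 without FT10ppm replicate 2, 2 of 22 without FT20ppm replicate 1, 6 of 22 with total count in place of TMM factors and 5 of 22 without the isolation site term. Of all 10415 genes, 518, 325, 416 and 748 were lower in these fits in turn, against 526 in the main fit. In cholesterol synthesis 4 of 23 members were lower at an unadjusted p under 0.05, among them Hmgcs1, Fdps and Tm7sf2 at -0.51, -0.45 and -0.37, and the median was -0.29. That count was 1 without FT20ppm replicate 1, 11 without FT20ppm replicate 2, 0 without block 3 and 0 in a model of all 84 mice. In those fits 325, 392, 109 and 641 of all genes were lower. The median difference of the cholesterol list was 0.077 in block 1, -0.20 in block 3 and -0.051 in block 4.

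Among enzymes that act on organophosphates no gene passed the adjusted threshold. Ache, the target of the active metabolite, was under the filter on low counts and was read at 0.196 to 0.695 CPM at FT20ppm and 0.115 to 0.591 CPM at FT10ppm, close to the floor of 3 counts. With no filter its log2 fold change was -0.22 ± 0.47, with a 95% interval of -1.20 to 0.76, so a difference was not detectable at this depth. Of 26 cholinesterases, carboxylesterases and paraoxonases, 5 were lower (Ces1d, Ces2e, Pon1, Aadac and Mgll) and Ces4a was higher at an unadjusted p under 0.05. Leaving out FT20ppm replicate 3 or block 3 left 1 lower in each case, where 326 and 109 of all 10415 genes were lower. In block 4 the list's median difference was 0.19, with 21 of 26 members higher, against -0.083 in block 1 and -0.19 in block 3. Ces2e, a carboxylesterase, was at 234 to 639 CPM (median 413) against 449 to 746 CPM (median 568), and Pon1, the serum paraoxonase, differed by -0.42 ± 0.192, or -0.17 without FT10ppm replicate 2. Bche, the butyrylcholinesterase gene, differed by -0.022 ± 0.119. Carboxylesterase and Cyp3a genes are families of close copies, and their counts may be shared.

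Among 24 targets of the xenobiotic receptors CAR and PXR, 4 were lower and 3 higher. Between 2 and 6 were lower when 1 mouse was left out, with 2 without FT10ppm replicate 4 and 6 without FT10ppm replicate 6. Of all 10415 genes, 362 and 667 were lower in these fits in turn, against 526 in the main fit. The number lower was 8 without block 4 and 1 without block 3, where 698 and 109 of all 10415 genes were lower. The number higher was 1 without block 1 and 0 without block 3, where 634 and 137 of all genes were higher. The median difference of the list was -0.13 in block 1, -0.072 in block 3 and 0.24 in block 4, where 16 of 24 members were higher at FT20ppm. Cyp3a11, a main drug-metabolizing enzyme, was at 44.6 to 93.5 CPM (median 60.2) against 62.5 to 166 CPM (median 96.5), a log2 fold change of -0.76 ± 0.189 that passed in DESeq2 at an adjusted p of 0.0345 and not in edgeR at 0.401. Its relative Cyp3a13 went the other way, at 25.7 to 51.6 CPM (median 41.3) against 17.7 to 35.7 CPM (median 23.2). Alas1, the first enzyme of heme synthesis, had a log2 fold change of 1.61 ± 0.553 at 26.9 to 300 CPM (median 152) against 17 to 85.2 CPM (median 41.2), and Por, the reductase that serves cytochrome P450 enzymes, differed by 0.80 ± 0.239. Of 28 Nrf2 targets and glutathione enzymes, 5 were lower and 0 higher, among them Gsta2 at -1.32 ± 0.42 and Gsta1 at -1.28 ± 0.518, which are close copies. The number lower was 2 without FT10ppm replicate 1, 8 without FT10ppm replicate 2, 2 with total count in place of TMM factors and 0 without block 3. Of all 10415 genes, 715, 518, 416 and 109 were lower in these fits in turn, against 526 in the main fit. Of 25 PPAR alpha targets, 4 were lower, among them Cpt2, Acadl and Hadhb at -0.24, -0.32 and -0.60. The number was 0 without FT20ppm replicate 2, 9 without FT10ppm replicate 6 and 10 without block 4. In those fits 392, 667 and 698 of all 10415 genes were lower. The median difference of these targets was -0.38 in block 1 and -0.18 in block 3, and 0.28 in block 4, where 20 of 25 were higher at FT20ppm.

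In the remaining lists at most 6 members had an unadjusted p under 0.05. Respiratory chain genes had 5 of 26 lower, with estimates down to -0.29, but 0 without FT20ppm replicate 3, 0 without block 3 and 9 without FT10ppm replicate 6. Of all 10415 genes, 326, 109 and 667 were lower in these fits, against 526 in the main fit. In the glucocorticoid and metallothionein list 5 of 15 were higher. Among them were Mt2 and Mt1, which the acute phase list also holds, and the glucocorticoid receptor gene Nr3c1 at 0.33 ± 0.134. The number higher was 2 without FT10ppm replicate 3 and 1 without block 3, where 436 and 137 of all 10415 genes were higher. Mt2 was at 1.19 to 471 CPM (median 19.8) against 1.26 to 36.5 CPM (median 1.92), the highest FT10ppm value being replicate 2, and its log2 fold change was 3.01 ± 1.35, or 4.76 without that mouse. Myc, an immediate early gene and growth regulator, was at 4.67 to 78.5 CPM (median 12.4) against 3.21 to 7.19 CPM (median 4.38), a log2 fold change of 2.34 ± 0.64 with 4 FT20ppm mice above all FT10ppm mice. Among stress genes Ddit3, the gene of the factor CHOP, differed by -0.99 ± 0.251 and Asns, asparagine synthetase, by 1.28 ± 0.426. Cish, a target of growth hormone signalling, had an estimate of 2.61 ± 0.879 at under 10 CPM, and Cdc20, a mitotic gene, one of -1.11 ± 0.293. Bile acid genes had 0 of 22 members at that level in either direction. Interferon-stimulated genes had 3 of 29 higher and genes of gluconeogenesis, the urea cycle and amino acid breakdown 4 of 29, Sds and Pck1 among the latter. The share over all genes was 5.23%. These counts ran from 1 (without FT20ppm replicate 1) to 5 and from 2 (without FT10ppm replicate 4) to 5 when 1 mouse was left out. Of all 10415 genes, 394 and 389 were higher in the 2 fits named, against 545 in the main fit. Heme, growth hormone, cell cycle, unfolded protein, circadian, p53, immediate early, ribosomal protein and other cytochrome P450 lists each had at most 4 members at that level over both directions. The unfolded protein and stress list depended on the block, with 3 of 27 members lower at a median of -0.16 in all mice. Without block 1, 13 (48.1%) were lower at a median of -0.46, where 5.45% of all genes were lower. Without block 3, 2 were lower at a median of 0.10, where 1.05% of all genes were. The list's median difference was 0.31 in block 1, -0.39 in block 3 and -0.18 in block 4. Without FT20ppm replicate 1, 7 members were lower, where 325 of all 10415 genes were, against 526 in the main fit.

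**Figure D4:**
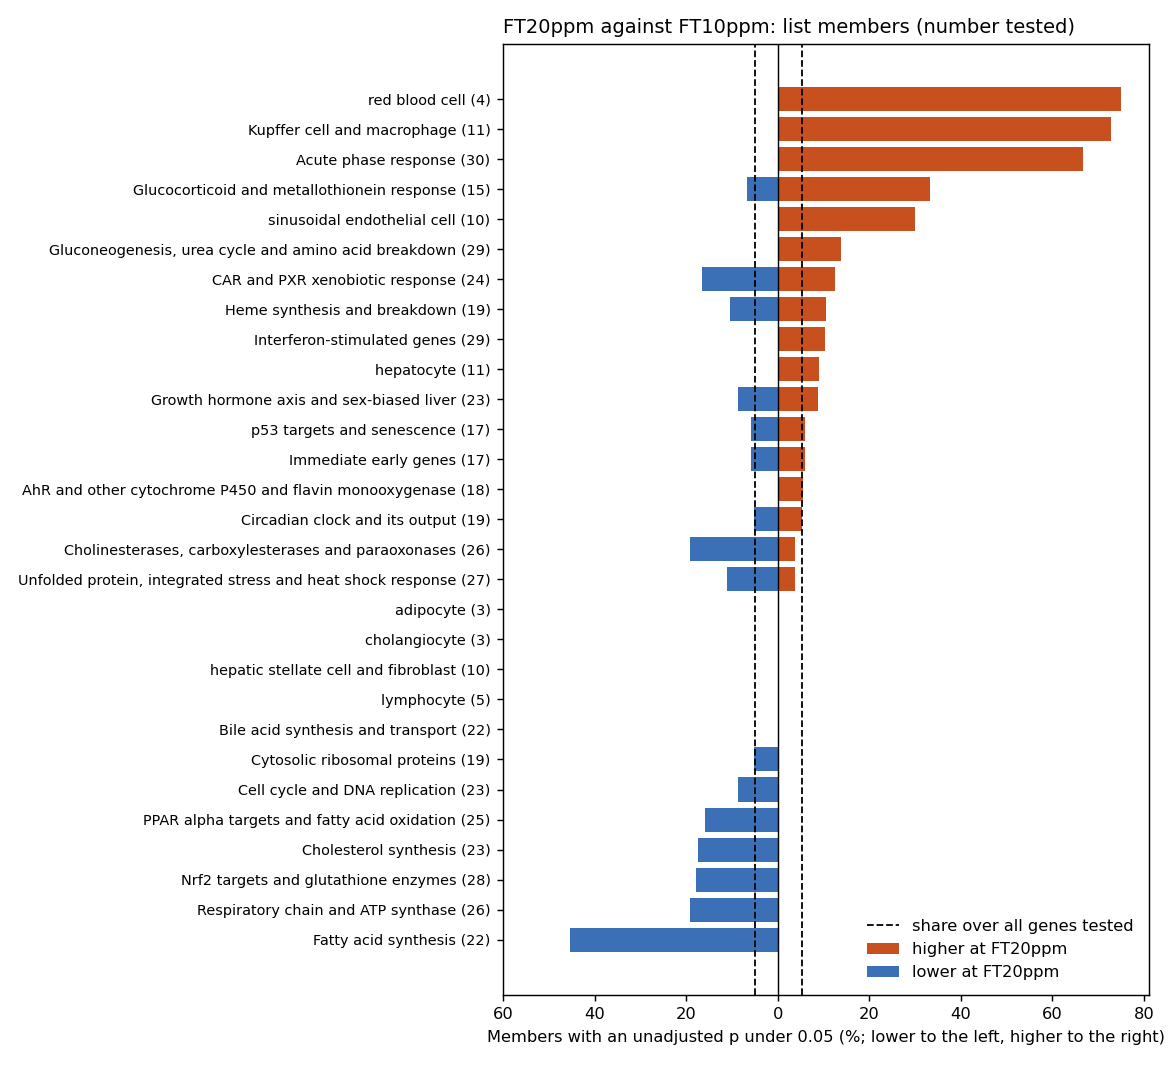
Share of the tested members of each list (number in brackets) with an unadjusted p under 0.05, higher at FT20ppm to the right and lower to the left, with dashed lines at the shares over all genes, 5.23% and 5.05%. Acute phase genes reach 66.7% and Kupffer cell markers 72.7% to the right, and fatty acid synthesis 45.5% to the left, with lists of under 3 tested members left out.

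The genes called at 10 ppm against control showed smaller estimates at 20 ppm, but no difference between the doses passed the threshold. In 1 model over all 84 mice, 22 of 10415 genes (0.211%) were called at FT10ppm against control, at an adjusted p under 0.05 and at least 2-fold, and 0 at FT20ppm, where 415 genes had an unadjusted p under 0.05. With EA mice only, 8 genes were called at FT10ppm and 17 of the 22 no longer had an adjusted p under 0.05, and with control and fenthion mice only, 2 were called. The FT10ppm values chose the 22 genes, the FT10ppm mice enter both comparisons and the control mice enter both doses, so their values are set side by side as a description. The 12 that were higher at FT10ppm had log2 fold changes against control of 1.08 to 3.10 (median 1.33) at FT10ppm and -0.23 to 2.33 (median 0.46) at FT20ppm. The 10 that were lower had -2.31 to -1.10 (median -1.37) and -1.02 to -0.22 (median -0.41). Between the doses, the first set had -1.76 to -0.28 (median -0.86) and the second 0.51 to 1.65 (median 0.86). Of the 22, 13 had an unadjusted p under 0.05 between the doses, against 10.3% of all genes, a count from which nothing is read because the values that chose the genes enter it, and 0 an adjusted p under 0.05 in edgeR, while Dipk2a and Crybb3 passed in DESeq2 and none of the 22 had groups that did not overlap.

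The set that was higher at FT10ppm held some enzymes of xenobiotic and lipid metabolism among genes of other functions. Cyp4a10, a fatty acid omega-hydroxylase and PPAR alpha target, was at 0.225 to 3.04 CPM in control mice, 0.839 to 30.3 CPM at FT10ppm (median 3.20) and 1.44 to 16.6 CPM at FT20ppm (median 3.47). Against control its log2 fold change was 3.10 ± 0.715 at FT10ppm and 2.33 ± 0.737 at FT20ppm, where adjusted p was 0.999, and between the doses it was -0.99 ± 0.922 with a 95% interval of -2.97 to 0.98. Cyp2c55, a cytochrome P450 of the CAR and PXR list, was at 2.35 to 8.82 CPM (median 4.2) at FT10ppm and 1.63 to 4.08 CPM (median 2.81) at FT20ppm, with 1.33 ± 0.296 and 0.44 ± 0.298 against control. Ugt1a5, a glucuronosyltransferase whose reads may be shared with its locus, was at 135 to 451 CPM (median 299) and 54.1 to 273 CPM (median 115), with 1.45 ± 0.335 and 0.47 ± 0.325. Magoh, a subunit of the exon junction complex, and Pdk1, a kinase of pyruvate dehydrogenase, had the estimates nearest to each other at the 2 doses, 1.48 ± 0.325 and 1.06 ± 0.318 for Magoh and 1.13 ± 0.283 and 0.72 ± 0.282 for Pdk1. Rpl10a, a ribosomal protein gene, was at 31.5 CPM in FT10ppm replicate 2 and at most 2.06 CPM in the other FT10ppm mice, and its log2 fold change between the doses was -1.76 ± 0.76 with that mouse and -0.20 without it. Lztr1, Dipk2a, Slc17a4, Tap1, Rdh16 and the pseudogene Gm7049 completed the set.

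The set that was lower at FT10ppm held A2m, a secreted protease inhibitor, and the acute phase gene Lrg1. Lrg1 was at 76.3 to 626 CPM in control mice (median 177), 39.3 to 172 CPM at FT10ppm (median 65.6) and 74.2 to 462 CPM at FT20ppm (median 190). Against control its log2 fold change was -1.56 ± 0.422 at FT10ppm and -0.28 ± 0.394 at FT20ppm, and between the doses it was 1.33 ± 0.429. A2m was at 0.0913 to 1.92 CPM (median 0.653) at FT10ppm and 0.782 to 5.74 CPM (median 3.71) at FT20ppm, with 4 FT20ppm mice above all FT10ppm mice, and its estimates against control were -2.03 ± 0.57 and -0.22 ± 0.476. Crybb3, a beta-crystallin gene, was at 1.08 to 4.61 CPM (median 1.92) at FT10ppm and 2.43 to 12.2 CPM (median 4.07) at FT20ppm, and between the doses it differed by 1.61 ± 0.43, at an adjusted p of 0.401 in edgeR and 0.0339 in DESeq2. Capn8, a calpain protease, kept the most negative estimate at FT20ppm, -1.02 ± 0.495, after -2.31 ± 0.569 at FT10ppm. Enho, Nucb2, Slc16a12, Fbxo38, Maml3 and Atp11a completed the set, with -0.60 to -0.31 at FT20ppm. Among EA mice, 6 of the 22 genes kept 1 direction between the doses in every block.

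**Figure D5:**
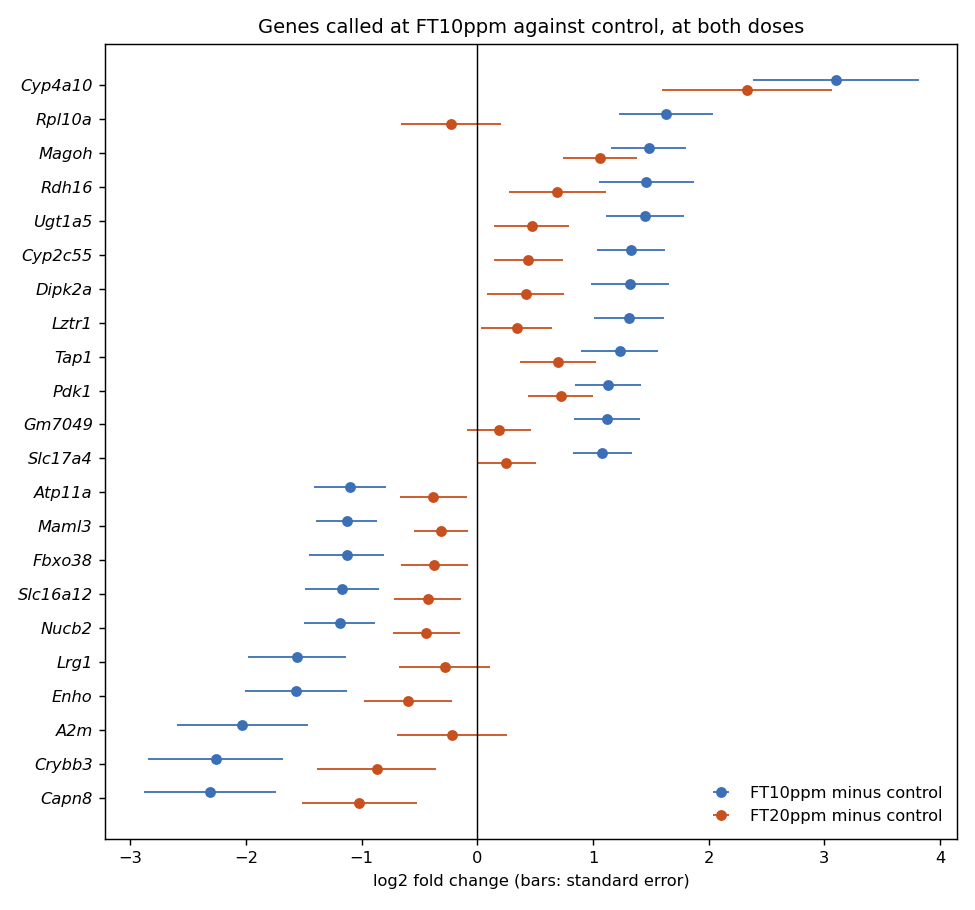
The log2 fold change against control (x axis, bars give the standard error) of the 22 genes called at FT10ppm, at FT10ppm in blue and at FT20ppm in orange. The estimates at FT20ppm lie nearer to 0, at a median of 0.46 against 1.33 for genes higher at FT10ppm and -0.41 against -1.37 for genes lower, and the FT10ppm values are those by which the genes were chosen.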

How the data were processed

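Liver RNA of 84 mice in 12 groups of 7 was measured by TempO-Seq. The authors trimmed the reads, aligned them to mm39 with STAR and deposited estimated counts for 17695 Ensembl genes, quantified by Partek E/M. Of the values, 18.7% were not whole, and all were rounded here. The authors' normalized table was not used. Genes with a median count of at most 8 over the 84 mice were dropped, as in the study, which left 10415. The 7 FT20ppm and 7 FT10ppm mice were fitted in edgeR 4.0.16 (quasi-likelihood, TMM) with block and isolation site as covariates and Benjamini-Hochberg adjustment, and a gene was called at an adjusted p under 0.05 and at least 2-fold. Comparisons with control used 1 model over 84 mice. Alternatives used limma 3.58.1 and DESeq2 1.42.0. Scripts were tested on simulated counts. The comparison, the gene lists and the markers were chosen with earlier results of these data known. Named were, in each direction, the 12 genes with the smallest p, Ache, all genes called at FT10ppm against control and, per pathway list, the highest and lowest member with an unadjusted p under 0.05, while other list members serve as examples and were chosen after their values were seen. Gene positions are from GENCODE M39 (GRCm39), which named 17660 IDs. Fold changes come from the fits and levels are CPM per mouse, not divided by length. No 2 libraries of a group agreed within sampling noise. Counts and floors cover counting error only.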

Additional observations from a re-analysis of the deposited data

Results flagged for a closer look

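In 5 of 156 tests of a named gene in a group of 7 mice, 1 mouse stood far from the other 6 by Dixon's ratio of its gap to the range of log2(CPM + 1), and chance alone flags about 1 in 20. At FT10ppm, Rpl10a (0.852) and Mt2 (0.759) were flagged for replicate 2 of block 1, which had 31.5 CPM against a next value of 2.06 for Rpl10a and 36.5 CPM against 3.44 for Mt2. This is the mouse that stood apart on the second principal component. Ddit3 (0.581) was flagged for replicate 6 of block 4 at FT10ppm, with 4.30 CPM against a next value of 2.52, and Gjb1 (0.742) for the same mouse, with 93.4 CPM against a next lowest value of 110. At FT20ppm, Fbxo38 (0.609) was flagged for replicate 5 of block 3, with 0.173 CPM against a next lowest value of 0.728.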

How the results depend on the processing

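The count of genes called between FT20ppm and FT10ppm was 0 in the main fit and in all alternatives run except 2. It was 3 with DESeq2 (Saa2 and Crybb3 higher, Gm8834 lower, with 19 genes at an adjusted p under 0.05 and 2625 adjusted p-values not given) and 8 without block 4 (Cyb561, Lcn2, Lrg1, Saa1 and Saa2 higher, Gngt1, Gm7049 and Eif1ad4 lower). Without 1 mouse it was 0 to 0. The genes at an unadjusted p under 0.05 numbered 685 to 1342 without 1 mouse, the lowest without FT20ppm replicate 3, and 246 without block 3, against 1071. Genes called at FT10ppm against control fell from 22 to 8 with EA mice only and to 2 with control and fenthion mice only, the latter chosen after seeing the data, and 0 were called at FT20ppm in each of these fits. Of the 22, 5 kept an adjusted p under 0.05 with EA mice. Of 2356 log2 fold changes of 77 named genes under alternatives, 2332 kept their direction and their side of the threshold, 22 passed it (18 with DESeq2, 4 without block 4) and 2 reversed without block 1, Enho to -0.058 and Cyp4a10 to 0.28. Of 234 values of named genes within 1 block, 123 moved by over the spread between mice. Of 93 list medians, with EA mice only, without the isolation site term or with RLE factors, 4 moved by over the spread between FT10ppm mice, each of them without that term. The other settings for lists, leaving out blocks included, were chosen after seeing the data and are not in this tally. The cause of these shifts was not tested. No paired analysis was possible because the 2 doses were given to different mice, and block was already a covariate. Depth limits genes near the floor of 3 counts, such as Ache.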
